A study of Mus musculus with 46 samples.

Results

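The genes described here are 34 transporters, enzymes and related markers of the kidney proximal tubule, chosen by name and compared between p150-negative and p150-positive mouse kidneys. They are 34 of the 53465 genes in the count table. All 34 had enough reads to be tested beside 11957 genes in kidney. The mice were C57BL/6 at postnatal day 23. All of them had 1 Adar allele with P195A. Adar encodes ADAR1, which converts adenosine to inosine in double-stranded RNA, and P195A sits in its Z-alpha domain, a module for left-handed DNA and RNA found in the interferon-inducible p150 isoform and not in the constitutive p110 isoform. Per the genotype labels, the other allele made no p150 in p150-negative animals and did make it in p150-positive animals, so neither group was wild type. Total RNA of whole kidney was sequenced, with 1 library per animal. The comparison used 5 p150-negative kidneys (animals 1, 3, 8, 9 and 16) and 7 p150-positive kidneys (animals 4, 5, 6, 7, 10, 13 and 15).

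The proximal tubule is the first stretch of the nephron after the glomerulus. Its brush border takes filtered glucose, phosphate, amino acids and proteins back from the urine, driven by the sodium gradient that the basolateral sodium pump keeps up. The same cells take organic anions and cations from the blood across the basolateral membrane and secrete them into the lumen. Many drugs, urate and uremic solutes leave the body by this route. Hnf4a is a transcription factor known to control many of these transporter genes.

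The 12 kidneys carried the kidney genes outside the 34 that were checked (Umod, Aqp2, Slc12a1, Slc12a3 and Cdh16) at a summed level of 4642 to 8404 counts per 1000000 (CPM). The other 3 libraries labelled kidney, those of animals 2 and 11 (p150-negative) and 12 (p150-positive), held these genes at 0.556 to 0.856 CPM, together with stomach, small intestine or pancreas genes at 8290 to 32730 CPM, and were left out. Total counts ran from 0.27 to 3.5 M (M, 1000000 counts) in p150-negative and from 1.3 to 4.88 M in p150-positive kidneys. Animal 3 was the shallowest at 0.27 M, with 6919 genes detected against a median of 17780 over the 12 kidneys. By the sampling of reads alone, a gene with no read there may have stood at up to 11.1 CPM (the level of 3 counts). Some of the 34 at higher levels stood far apart in it too. Counts of genes called in kidney and some log2 fold changes are also given without it. The ratios within identifiers and the comparison with liver are not. The labels give no sex. Xist exceeded 10 CPM in 3 of 5 p150-negative and 3 of 7 p150-positive kidneys. Mitochondrial reads made up 3.37 to 4.65% and 2.5 to 4.63% of counts.

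Of the 34 genes, 5 fell in p150-negative kidneys and none rose at an adjusted p under 0.05. Those that fell were the glucose transporter Slc5a2, the orphan carrier Slc16a14 and the organic ion transporters Slc22a2, Slc22a12 and Slc22a7. Over all genes tested, 0.309% were called lower and 0.385% higher. At an unadjusted p under 0.05, 12 of the 34 were lower and none higher, where 4.72% of all genes were lower. The log2 fold change (p150-negative over p150-positive) was below 0 for 32 of 34 genes, or 94.12%, against 56.34% of all genes tested. Of these, Slc5a1, Slc7a7, Slc9a3 and Kap lay between -0.09 and -0.01 and had the higher mean CPM in p150-negative kidneys. Over 22 other settings of the fit, the sign changed in 14 for Slc7a7, 12 for Kap, 10 for Slc5a1 and 9 for Slc6a19. Its median was -0.47 over the 34 and -0.07 over all genes, and the latter was 0.03 when only library totals were used for scaling. Without animal 3, 8 of 34 genes were called lower and none higher (0.749% and 0.969% of all genes), with Slc34a3, Slc22a6 and Slc17a3 joining the same 5. The adjusted p of those 5 then ran from 0.00987 (Slc5a2) to 0.0193 (Slc22a7). In that fit 29 of 34 log2 fold changes were below 0, and the median was -0.47 over the 34 and 0.02 over all genes. The share of all genes below 0 in that fit was not counted. RNA of whole kidney does not tell fewer cells of a type from less RNA per cell.

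**Figure D1:**
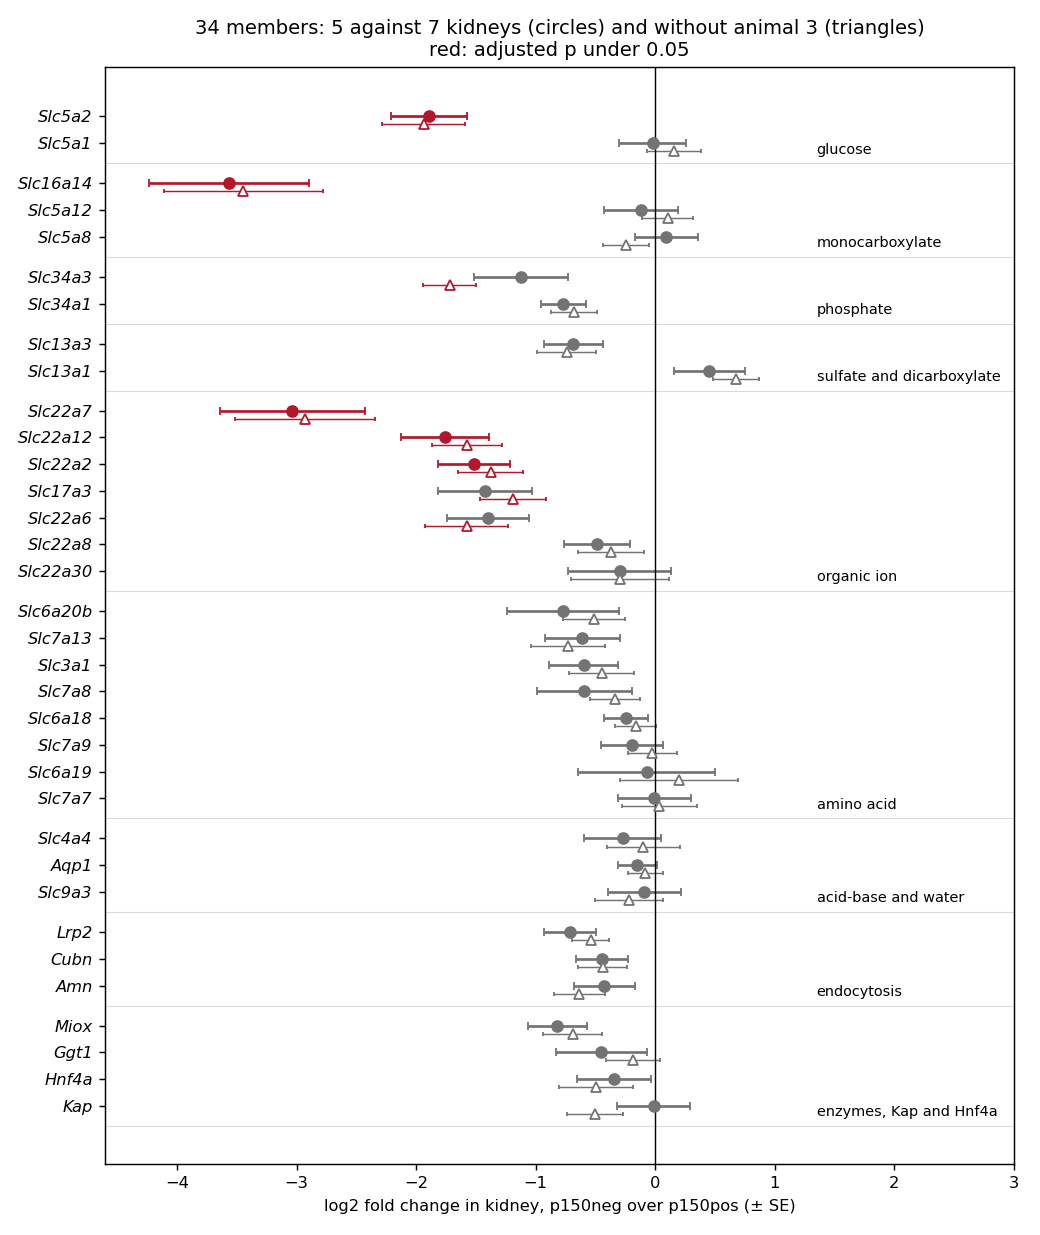
Log2 fold change (p150-negative over p150-positive, ± SE) of the 34 genes, grouped by substrate. Circles are the 5 against 7 kidneys, triangles the same without animal 3, and red marks an adjusted p under 0.05. The 5 red circles all lie left of 0, and the organic ion transporters reach furthest down as a group, with a median of -1.43.

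The number of calls moved with single animals. Among the fits that each left out 1 of the 12 kidneys, the number of the 34 called lower was 1 without animal 1, 8 or 9, and 2 without animal 4, 7, 10, 13 or 16. It was 3 without animal 6, 5 without animal 5, 7 without animal 15 and 8 without animal 3. Calls over all genes moved too: 0.309% were called lower in the 12 kidneys and 0.749% without animal 3. Their range over these fits is given with the dependence on processing, and the movement is not particular to the 34. Slc5a2 was called in 12 of these 12 fits, with adjusted p from 0.00256 to 0.0481. Slc16a14 was called in 8 of them, Slc22a12 and Slc22a7 in 4 each, and Slc22a2 in 3. With all 15 labelled kidneys, which mixes in the 3 libraries of other organs, none of the 34 was called and 3 had an unadjusted p under 0.05. That fit called 1 gene in all, or 0.00857%.

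Glucose leaves the filtrate through a pair of sodium-glucose cotransporters. Slc5a2 (SGLT2, ENSMUSG00000030781, chr7:128265657-128272430, plus strand, GRCm38) is the high-capacity carrier of the early proximal tubule and the target of the gliflozin drugs. It stood at 127, 182, 115, 154 and 145 CPM in the p150-negative kidneys of animals 1, 3, 8, 9 and 16. In the p150-positive kidneys it ran from 219 over a median of 518 to 784 CPM. No p150-negative kidney reached the lowest p150-positive one, although animals 5 (219 CPM) and 15 (224 CPM) lay close to the p150-negative range. The means were 145 ± 25.8 (SD, n = 5) and 489 ± 226.5 CPM (n = 7), a 3.71-fold lower level and a log2 fold change of -1.89 with an SE of 0.32 (adjusted p = 0.00854). Slc5a1 (SGLT1), the high-affinity carrier further down the tubule, was not called. Its level was 172 ± 58.2 CPM in p150-negative and 167 ± 48.1 CPM in p150-positive kidneys, with a log2 fold change of -0.02 ± 0.28. Per kilobase of exon, Slc5a2 was at 201 CPM and Slc5a1 at 40.6 CPM in p150-positive kidneys, and at 59.3 and 42.0 CPM in p150-negative ones.

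In the annotation 597 exonic bases of Slc5a2, 24.5% of its exons, overlap BC017158 on the opposite strand, and the library kit does not mark strand. BC017158 stood at 19.4 CPM in p150-negative and 16.9 CPM in p150-positive kidneys, far under Slc5a2 in either group. Its log2 fold change was 0.22 ± 0.48 (adjusted p = 0.979).

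Slc16a14 had the log2 fold change farthest from 0 of the 34. It belongs to the monocarboxylate transporter family and is an orphan carrier, with no substrate named here (ENSMUSG00000026220, chr1:84905898-84935134, minus strand). It stood at 7.145, 0, 6.65, 3.56 and 9.02 CPM in animals 1, 3, 8, 9 and 16. In p150-positive kidneys the lowest was 2.635, the median 83.4 and the highest 109.3 CPM. The groups overlapped because of animal 15 alone, the p150-positive kidney at 2.635 CPM; the other p150-positive kidneys lay at 41.75 CPM or above. It was 11.8-fold lower in p150-negative kidneys (log2 fold change -3.57 ± 0.67, adjusted p = 0.0176). The call was lost without animal 1 (0.0635), 8 (0.0764), 9 (0.0667) or 16 (0.0554).

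The sodium-coupled carriers of lactate and other monocarboxylates, Slc5a8 and Slc5a12, were not called. Slc5a8 stood at 148 to 501.5 CPM in p150-negative and 132 to 258.5 CPM in p150-positive kidneys, where 501.5 CPM was animal 3. Slc5a12 stood at 78.0 to 459 and 219 to 405.5 CPM. Their log2 fold changes were 0.09 ± 0.27 and -0.12 ± 0.31, and both changed sign without animal 3 (-0.25 and 0.11).

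Of the 7 organic ion carriers, 3 fell, and 5 without animal 3. All 7 had a log2 fold change below 0, with a median of -1.43. Slc22a2 (OCT2, ENSMUSG00000040966, chr17:12584132-12628488, plus strand) is the basolateral entry for organic cations such as metformin and creatinine. Its levels were 73.5, 37.1, 60.2, 83.8 and 94.7 CPM in animals 1, 3, 8, 9 and 16, against 97.8 to 256 CPM (median 208.6) in p150-positive kidneys. The ranges did not overlap, with p150-negative animal 16 (94.7 CPM) and p150-positive animal 5 (97.8 CPM) nearest to each other. Slc22a2 was 2.86-fold lower (log2 fold change -1.51 ± 0.30, adjusted p = 0.028).

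Slc22a12 (URAT1, ENSMUSG00000061742, chr19:6535845-6543032, minus strand) exchanges urate for organic anions at the brush border. It stood at 27.1, 11.1, 58.1, 44.5 and 98.8 CPM in animals 1, 3, 8, 9 and 16 and at 119 to 209.5 CPM (median 161) in p150-positive kidneys. The ranges did not overlap, and the level was 3.39-fold lower (log2 fold change -1.76 ± 0.36, adjusted p = 0.0322). The gene shares 682 exonic bases, 30.1% of its exons, with Nrxn2 on the opposite strand. Nrxn2 stood at 7.41 CPM in p150-negative and 1.71 CPM in p150-positive kidneys and was too low to be tested.

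Slc22a7 (OAT2, ENSMUSG00000067144, chr17:46432183-46438457, minus strand) carries organic anions. It stood at 3.14, 0, 3.5, 7.13 and 5.74 CPM in animals 1, 3, 8, 9 and 16 and at 10.1 to 77.9 CPM (median 33.9) in p150-positive kidneys. The ranges did not overlap, but the 3-count level of 11.1 CPM in animal 3 lies above the lowest p150-positive value, that of animal 15. The level was 8.21-fold lower (log2 fold change -3.04 ± 0.61, adjusted p = 0.028).

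Slc22a6 (OAT1) and Slc22a8 (OAT3) are the main basolateral carriers of organic anions such as para-aminohippurate, and their genes lie next to each other on chromosome 19. Slc22a6 stood at 121, 227, 61.3, 68.2 and 188 CPM in animals 1, 3, 8, 9 and 16 and at 126 to 403 CPM (median 341.5) in p150-positive kidneys, where the lowest was again animal 15. It was not called in the 12 kidneys (-1.40 ± 0.34, adjusted p = 0.0849) and was called without animal 3 (-1.58, adjusted p = 0.035). Slc22a8 stood at 178 to 368.5 and 138 to 449 CPM (-0.49 ± 0.28, adjusted p = 0.731). Whether the neighbours differed in response was not tested.

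Slc17a3 (NPT4), an apical carrier that releases urate and other organic anions into the lumen, stood at 69.7, 14.9, 111, 125 and 225 CPM in animals 1, 3, 8, 9 and 16. In p150-positive kidneys it ran from 211 CPM in animal 15 to 383 CPM (median 265), so that only p150-negative animal 16 reached into that range. The log2 fold change was -1.42 ± 0.39 (adjusted p = 0.138), and -1.19 (adjusted p = 0.0459) without animal 3. Slc22a30, a rodent member of the organic anion family, was at 5.65 CPM per kilobase of exon in p150-positive kidneys, the lowest of the 34 there, and at 5.03 CPM per kilobase in p150-negative kidneys (-0.30 ± 0.43). Its reads may be shared with near copies in the same gene cluster, so its value is uncertain.

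**Figure D2:**
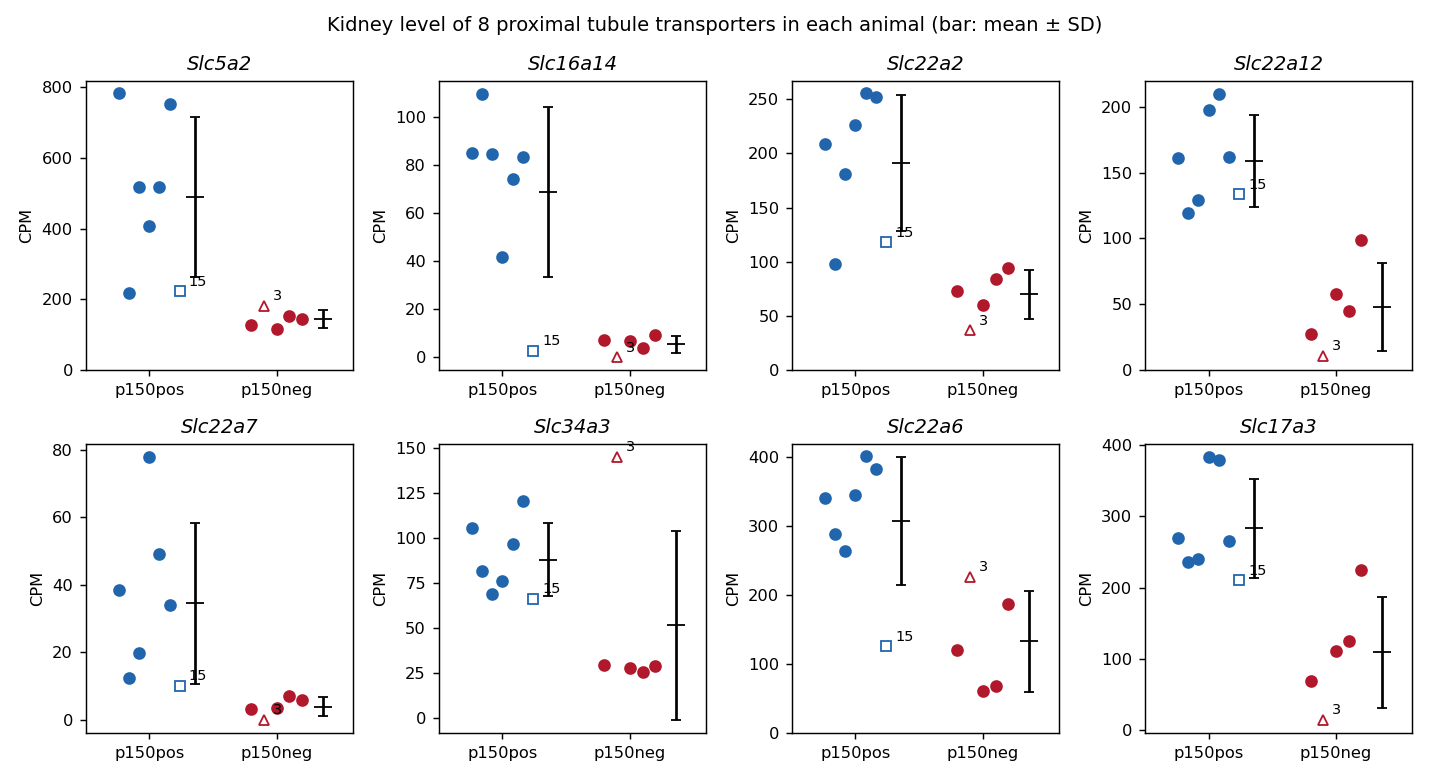
CPM of 8 proximal tubule transporters in each kidney, with p150-positive animals in blue, p150-negative animals in red and bars for the mean ± SD. Open symbols mark the shallow p150-negative animal 3 (triangle) and the p150-positive animal 15 (square). Animal 15 lies at or near the p150-negative values for Slc5a2, Slc16a14, Slc22a7, Slc22a6 and Slc17a3. Animal 3 lies above all p150-positive animals for Slc34a3.

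The bases before the start site are shown for 3 of the genes that fell and for Slc3a1. HNF4 is known to act on promoters of this class. In the order printed, the windows hold the letters CAAAGT, no match, no match and the longer HNF4 site CAAAGTCCA. Sequences are from RefSeq (GRCm38.p6), read on the gene's strand and ending before the first annotated exon base. Of the 34 genes, 28 had an entry in that table, with 38 promoters. The 6 without an entry were Slc5a2, Slc22a7, Slc5a12, Slc6a18, Slc7a13 and Slc13a1. Capitals mark the longer HNF4 site (CAAAGTCCA) or its first 6 letters (CAAAGT), on either strand. Other forms of an HNF4 site were not searched. Slc22a12 is at chr19:6543071-6543320 (minus strand), Slc22a2 at chr17:12583939-12584131 (plus), Slc16a14 at chr1:84935135-84935333 (minus) and Slc3a1 at chr17:85028097-85028346 (plus).
Slc22a12: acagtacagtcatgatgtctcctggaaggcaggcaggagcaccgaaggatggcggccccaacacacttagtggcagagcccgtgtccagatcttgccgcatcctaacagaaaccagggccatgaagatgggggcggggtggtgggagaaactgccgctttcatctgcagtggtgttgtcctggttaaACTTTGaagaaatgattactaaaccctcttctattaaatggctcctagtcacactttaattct
Slc22a2: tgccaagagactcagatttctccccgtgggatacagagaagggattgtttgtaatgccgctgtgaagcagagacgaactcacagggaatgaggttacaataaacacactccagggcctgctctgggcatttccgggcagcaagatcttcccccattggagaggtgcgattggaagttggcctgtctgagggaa
Slc16a14: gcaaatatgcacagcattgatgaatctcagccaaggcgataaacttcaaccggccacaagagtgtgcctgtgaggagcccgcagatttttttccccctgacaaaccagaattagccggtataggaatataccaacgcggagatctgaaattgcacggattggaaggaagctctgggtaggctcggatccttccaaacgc
Slc3a1: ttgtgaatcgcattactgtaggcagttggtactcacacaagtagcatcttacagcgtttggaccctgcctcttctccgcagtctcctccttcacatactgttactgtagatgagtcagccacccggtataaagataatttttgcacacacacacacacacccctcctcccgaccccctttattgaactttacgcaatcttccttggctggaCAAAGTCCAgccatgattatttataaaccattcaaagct

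In the 250 bases before each start, CAAAGT occurred in 7 of the 38 promoters (18.4%), against 12.6% of 32851 promoters in the table. The 7 belonged to Slc22a12, Slc22a30, Slc3a1, Slc4a4, Slc7a7, Lrp2 and Ggt1, of which Slc22a12 was 1 of the 3 genes that fell and could be searched. In Slc22a12 the match ran from base -63 to -58 and reads CAAAGT on the strand opposite to the gene. CAAAGTCCA occurred in 1 of 38, that of Slc3a1 from -39 to -31 on the gene's strand, and in 0.384% of all. These letters did not occur in the windows of Slc22a2 and Slc16a14. A match of letters is a description and not a bound site.

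Phosphate is reclaimed by a pair of sodium-phosphate cotransporters of the brush border. Slc34a1 (NaPi-IIa), the main one in mouse, was the most abundant transporter of the 34 per kilobase of exon, at 534 CPM per kilobase in p150-negative and 844 CPM per kilobase in p150-positive kidneys. It stood at 2261, 1809, 1926, 1963 and 2794 CPM in animals 1, 3, 8, 9 and 16, and at 2514 to 4302 CPM (median 3565) in p150-positive kidneys. Only animal 16 reached into the p150-positive range. The log2 fold change of -0.77 ± 0.19 was not called (adjusted p = 0.0808).

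Slc34a3 (NaPi-IIc) turned on animal 3. It stood at 29.4, 28.0, 25.8 and 29.1 CPM in animals 1, 8, 9 and 16 but at 145 CPM in animal 3, and at 66.3 to 120 CPM (median 81.6) in p150-positive kidneys. The log2 fold change was -1.12 ± 0.39 (adjusted p = 0.32) with animal 3 and -1.72 (adjusted p = 0.00133) without it. Across the 34 genes, the CPM ranges did not overlap for 5 with animal 3 and for 6 without it, where 1.02% and 1.62% of all tested genes were lower without overlap. The 5 were Slc5a2, Slc22a2, Slc22a12, Slc22a7 and the endocytic receptor Lrp2, and Slc34a3 was the further one.

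The sulfate carrier Slc13a1 and the dicarboxylate carrier Slc13a3 had log2 fold changes of opposite sign. Slc13a1 (NaS1), of the brush border, stood at 544, 149, 482, 388 and 843 CPM in animals 1, 3, 8, 9 and 16 and at 267 to 432.5 CPM in p150-positive kidneys (0.45 ± 0.30, adjusted p = 0.793). Without animal 3 its value was 0.68 (adjusted p = 0.107), the furthest above 0 of the 34. Slc13a3 (NaDC3) takes up the dicarboxylates that the organic anion carriers of the basolateral membrane exchange. It stood at 86.9 to 257 CPM in p150-negative and 186 to 291 CPM in p150-positive kidneys (-0.69 ± 0.25, adjusted p = 0.343).

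None of the 8 amino acid carriers was called, with or without animal 3, and with animal 3 none had an unadjusted p under 0.05. All 8 log2 fold changes were below 0, between -0.77 and -0.01, with a median of -0.42. Without animal 3, those of Slc6a19 (0.20) and Slc7a7 (0.03) were above 0, and Slc7a13 had an unadjusted p of 0.0314. The heavy chain Slc3a1 (rBAT) and its partner Slc7a9 reabsorb cystine and basic amino acids. Slc3a1 stood at 227 to 581 CPM in p150-negative and 281 to 791 CPM in p150-positive kidneys (-0.60 ± 0.29), and Slc7a9 at 115 to 333 and 158 to 319 CPM (-0.19 ± 0.26). Slc7a13, another light chain that pairs with Slc3a1, stood at 32.3 to 137 and 69.9 to 143 CPM (-0.61 ± 0.31). Of Slc3a1, 26.5% of the exon bases overlap Prepl on the opposite strand, and Prepl stood at 47.7 and 57.4 CPM.

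The basolateral exits Slc7a7 (y+LAT1) and Slc7a8 (LAT2) release amino acids to the blood. Slc7a7 stood at 115 to 295 CPM in p150-negative and 97.8 to 279 CPM in p150-positive kidneys (-0.01 ± 0.30). Slc7a8 stood at 104 to 156 CPM in animals 1, 8, 9 and 16, at 7.43 CPM in animal 3, and at 95.3 to 207 CPM in p150-positive kidneys (-0.59 ± 0.39). Neutral amino acids enter by sodium-coupled carriers of the brush border. Slc6a19 (B0AT1) ran from 29.7 to 720 and from 36.2 to 506 CPM, with its lowest values in the shallowest kidney of each genotype, animals 3 and 5. Its log2 fold change was -0.07 ± 0.57. Slc6a18 (B0AT3) stood at 416 to 530 and 417 to 689 CPM (-0.24 ± 0.18). Slc6a20b, a member of the same gene family, had no read in animal 3. It stood at 83.8 to 128 CPM in the other p150-negative and 63.1 to 205 CPM in the p150-positive kidneys (-0.77 ± 0.46). The gene shares 21.1% of its exon bases with Sacm1l on the opposite strand.

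None of the 3 acid-base and water handling genes was called, and their log2 fold changes lay between -0.27 and -0.09. Aqp1, the water channel of the proximal tubule and descending limb, stood at 422 ± 58.8 CPM (n = 5) and 439 ± 58.4 CPM (n = 7), with a log2 fold change of -0.15 ± 0.16. The basolateral bicarbonate exit Slc4a4 (NBCe1) stood at 223 to 775 and 282 to 893 CPM (-0.27 ± 0.32). The apical sodium-proton exchanger Slc9a3 (NHE3) stood at 58.3 to 119 and 27.7 to 97.8 CPM (-0.09 ± 0.31).

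Filtered proteins are taken up by megalin, cubilin and amnionless. Megalin (Lrp2) stood at 499.8, 223, 492, 358 and 558 CPM in animals 1, 3, 8, 9 and 16 and at 575 to 834 CPM (median 653) in p150-positive kidneys. The ranges did not overlap, yet the log2 fold change of -0.71 ± 0.22 was not called (adjusted p = 0.214, and 0.106 without animal 3). Cubilin (Cubn), its partner, stood at 75.3 to 138 and 110.1 to 211 CPM (-0.44 ± 0.22), and Amn, which brings cubilin to the membrane, at 74.6 to 223 and 101 to 207 CPM (-0.42 ± 0.26).

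The remaining 4 genes held the most abundant of the 34 per kilobase of exon, Kap at 8313 CPM and Miox at 2595 CPM in p150-positive kidneys, and none of the 4 was called. Kap, an androgen-responsive gene of the tubule, stood at 3649, 15470, 4802, 4818 and 4248 CPM in animals 1, 3, 8, 9 and 16 and at 3788 to 9190 CPM in p150-positive kidneys. Its log2 fold change was -0.01 ± 0.31 with animal 3 and -0.51 (adjusted p = 0.375) without it. Miox opens the ring of myo-inositol as the first step of its breakdown. It stood at 1006, 1241, 1532, 2119 and 3075 CPM against 2391 to 3781 CPM (median 2796), with animal 16 alone inside the p150-positive range (-0.82 ± 0.25, adjusted p = 0.199). Ggt1, the brush border enzyme that splits glutathione, stood at 81.7 to 726 and 438 to 937.5 CPM (-0.45 ± 0.38). The transcription factor Hnf4a stood at 119 to 267 and 52.4 to 244.5 CPM (-0.35 ± 0.31, adjusted p = 0.897).

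Other genes of the proximal tubule were counted from lists of fixed membership. Of 45 further transporters, 41 were tested, none was called, 13 were lower at an unadjusted p under 0.05 and none higher. Their median log2 fold change was -0.48, with 35 of 41 below 0. Without animal 3, 5 of them were called lower: Slc16a4, Slc26a6, Slc16a9, Slc15a2 and Slc22a4, of which Slc22a4 had a log2 fold change of 0.03 with animal 3 and -0.85 without. Transporter partners and scaffolds (8 genes, median -0.26), brush border hydrolases (13 genes, median -0.34) and tubule transcription factors (8 of 9 tested, median -0.20) held no called gene.

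Among metabolic enzymes of the proximal tubule, 32 of 33 were tested, 4 fell and 1 rose, with a median of -0.53. Acy3 and Acy1, aminoacylases that split acetylated amino acids and mercapturic acids, fell by 1.45 ± 0.23 (adjusted p = 0.00537) and 1.49 ± 0.26 (0.0111) on the log2 scale. Keg1, a kidney-expressed acyltransferase-like gene, fell by 1.30 ± 0.21 (0.00537), from 1567 ± 429 to 693 ± 78.0 CPM. Ak4, a mitochondrial adenylate kinase, fell by 1.18 ± 0.25 (0.0384). Cyp24a1, the enzyme that inactivates vitamin D, rose by 2.11 ± 0.34 (0.00664), from 28.4 ± 10.1 to 136 ± 62.6 CPM. Of 10 injury genes, 9 were tested and 1 rose, the cell cycle inhibitor Cdkn1a (1.88 ± 0.35, adjusted p = 0.0163), and the median of the list was 0.80. Without animal 3, the iron-binding injury marker Lcn2 was called higher too (2.65, adjusted p = 0.0255, against 2.35 and 0.18 with animal 3), and 6 metabolic enzymes were called lower and 1 higher.

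**Figure D3:**
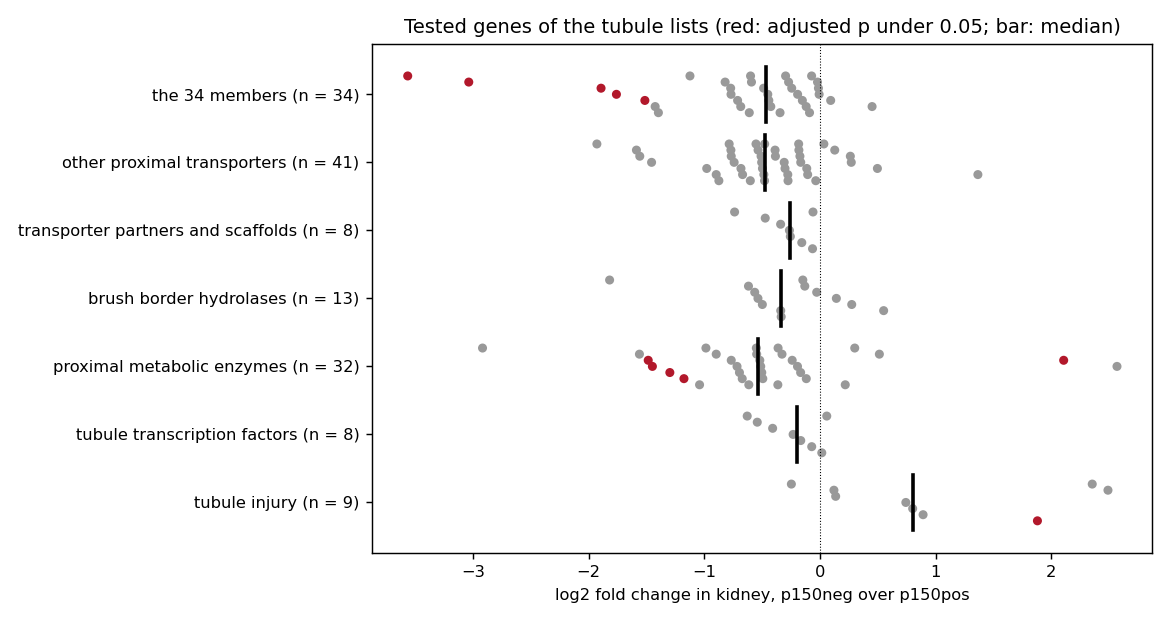
Log2 fold change (p150-negative over p150-positive) of every tested gene in the tubule gene lists, with red for an adjusted p under 0.05 and a black bar for the median. The 34 genes, the other transporters and the metabolic enzymes have medians between -0.53 and -0.47, and the injury list has a median of 0.80.

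Markers of other kidney cells were followed in the same libraries. Thick ascending limb genes summed to 3438 to 6122 CPM in p150-negative and 2802 to 6011 CPM in p150-positive kidneys, with 0 of 5 called. Collecting duct genes summed to 1687 to 3161 and 831 to 2221 CPM, with 1 of 5 called, the water and glycerol channel Aqp3 (1.03 ± 0.21, adjusted p = 0.0296). Distal convoluted tubule genes summed to 208 to 583 and 284 to 567 CPM, with 1 of 3 called, the calcium buffer Pvalb (-2.87 ± 0.60, adjusted p = 0.0336). Podocyte genes summed to 92.9 to 189.8 and 67.8 to 201 CPM and macrophage genes to 40.9 to 300.4 and 92.6 to 260.4 CPM, with none called. Intercalated cell genes summed to 628 to 881 and 464 to 786.5 CPM, with none of 4 called, and endothelial and stromal genes held no called gene. Without animal 3, Scnn1g, a sodium channel subunit of the collecting duct (1.06, adjusted p = 0.0418), and Atp6v0d2, a proton pump subunit of intercalated cells (0.81, adjusted p = 0.0193), were also called higher. None of the markers in these lists was at 0 in all 12 kidneys.

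The sums of neutrophil and of interferon-stimulated genes separated the groups, while those of the macrophage genes above overlapped. Neutrophil genes summed to 108 to 209 CPM in p150-negative and 6.77 to 81.6 CPM in p150-positive kidneys, with 1 of 3 tested genes called, S100a8 (3.48 ± 0.64, adjusted p = 0.0147), and 3 called without animal 3. Interferon-stimulated genes summed to 2148 to 3764 against 532 to 1051 CPM, and 10 of 12 were called higher, 11 without animal 3. The 4 with the smallest adjusted p were Lgals3bp (2.39 ± 0.25), Isg15 (2.32 ± 0.31), Ifit3 (1.71 ± 0.23, which may share reads with a near copy) and Irf7 (2.33 ± 0.34). Rsad2 was the 1 gene of the 12 with a log2 fold change below 0 (-0.35 ± 0.48, adjusted p = 0.961). Fat markers summed to 0 to 23.7 and 0 to 331 CPM. Adrenal cortex genes reached 79.5 CPM at most and hepatocyte genes 611.8 CPM at most in the 12 kidneys. The part of any of these in the values of the 34 genes was not tested. The summed level of the 34 was 14620 to 23110 CPM (median 14870) in p150-negative and 17950 to 22570 CPM (median 21050) in p150-positive kidneys, where 23110 CPM was animal 3.

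Animal identifiers in the labels begin with P094, AC, AA or AS, and the labels do not say what these parts mark. Within P094 (2 p150-negative against 3 p150-positive kidneys) the ratio of mean CPM was below 1 for 24 of 34 genes, with a median of 0.775. Within AC (2 against 2) it was below 1 for 30 of 34, with a median of 0.7. Within AS the only pair was p150-negative animal 16 against p150-positive animal 15, and there 14 of 34 ratios were below 1, with a median of 1.06. For Slc5a2 the ratios were 0.305, 0.29 and 0.646 in P094, AC and AS. For Slc22a2 they were 0.34, 0.299 and 0.802, for Slc22a12 0.14, 0.252 and 0.74, and for Slc22a7 0.0668, 0.0837 and 0.568. Slc16a14 had ratios of 0.0385 and 0.0883 in P094 and AC but of 3.42 in AS. With the identifier part as a term in the fit, 1 of the 34 was called, Slc22a12 (-2.05 ± 0.37, adjusted p = 0.0461), and Slc5a2 missed the threshold (-1.67 ± 0.32, adjusted p = 0.0567). That fit also called fewer of all genes than the reported fit.

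**Figure D4:**
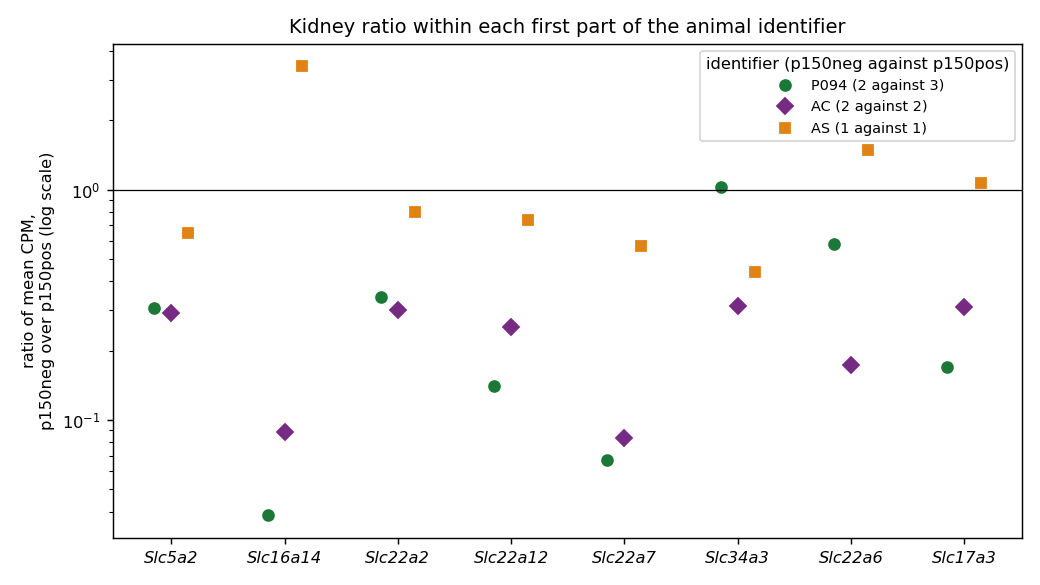
Ratio of mean kidney CPM, p150-negative over p150-positive, on a log scale for 8 transporters within each first part of the animal identifier. P094 (green circles) and AC (purple diamonds) lie below 1 except Slc34a3 in P094, while AS (orange squares, 1 against 1 animal) lies between 0.439 and 3.42.

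In liver, 7 p150-negative and 7 p150-positive libraries were compared, without the library labelled liver of animal 2, and 11 of the 34 genes were expressed enough to be tested. Of these, 4 fell and 2 rose, where 4.76% of all genes tested in liver fell and 6.94% rose. Slc22a7 stood at 36.6 ± 18.9 CPM in p150-negative and 110.1 ± 68.2 CPM in p150-positive livers (-1.58 ± 0.40, adjusted p = 0.0116), so this carrier fell in both organs. Slc17a3 stood at 38.5 ± 20.7 and 82.5 ± 8.56 CPM (-1.12 ± 0.27, adjusted p = 0.00798). Every p150-negative liver, at 15.2 to 65.8 CPM, was below every p150-positive liver, at 70.8 to 94.5 CPM. The liver ranges of Slc22a30 and Miox did not overlap either, and the share of all liver genes without overlap was not counted. Slc22a30 fell from 54.4 ± 26.3 to 6.13 ± 4.24 CPM (-3.29 ± 0.48, adjusted p = 7.86e-05) and Aqp1 from 56.3 ± 19.8 to 21.5 ± 5.65 CPM (-1.32 ± 0.23, adjusted p = 0.000566). Miox rose from 3.47 ± 1.44 to 12.0 ± 4.67 CPM (1.86 ± 0.37, adjusted p = 0.00167) and Slc4a4 from 28.7 ± 9.89 to 49.1 ± 12.0 CPM (0.80 ± 0.25, adjusted p = 0.0472). Hnf4a stood at 225 ± 85.2 and 261 ± 54.0 CPM (-0.18 ± 0.21).

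The genotype effect itself was then compared between kidney and liver in 1 fit, where 1.5% of 12970 genes differed. All 34 genes entered this fit and 3 differed, each of them among the 11 tested in both organs separately. Some of the 34 had almost no reads in liver, so that their difference could not be estimated. The share that differed among all genes tested in both organs was not counted. Miox, at -0.82 in kidney and 1.86 in liver, differed by -2.68 ± 0.46 on the log2 scale (kidney minus liver, adjusted p = 0.000822). Slc22a30, at -0.30 in kidney and -3.29 in liver, differed by 2.99 ± 0.65 (adjusted p = 0.00912). Aqp1, at -0.15 and -1.32, differed by 1.16 ± 0.31 (adjusted p = 0.0434). With the animal as a block in a paired fit, the same 3 were called, at -2.77 (0.0201), 3.19 (0.0328) and 1.33 (0.04), where 0.918% of all genes were called. For Slc22a7 and Slc17a3 the difference was -1.44 ± 0.70 (adjusted p = 0.524) and -0.30 ± 0.49 (0.97).

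**Figure D5:**
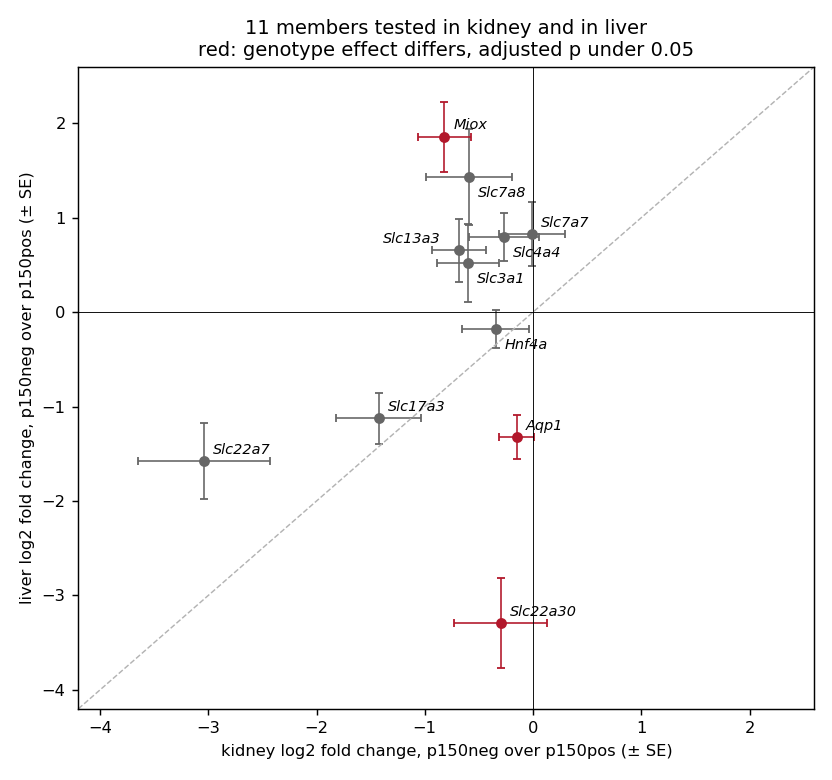
Log2 fold change (p150-negative over p150-positive, ± SE) in kidney on the horizontal axis and liver on the vertical axis for the 11 genes tested in both, with a dashed line of equal change. Red marks the 3 genes whose genotype effect differed between the organs, Miox, Slc22a30 and Aqp1, and Slc22a7 and Slc17a3 lie in the lower left.

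In cerebellum, 8 p150-negative and 7 p150-positive libraries were compared, without that of animal 7, which failed a check of cerebellar genes in earlier work on these data, and 11 of the 34 genes were tested. None was called, where 0.997% of all genes were. Slc4a4, which is also an astrocyte bicarbonate carrier, stood at 288 ± 70.4 and 256 ± 23.5 CPM (0.14 ± 0.16). Slc13a3 stood at 18.1 ± 7.55 and 33.2 ± 14.4 CPM (-0.92 ± 0.30, adjusted p = 0.222).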

How the data were processed

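RNA of liver, kidney and cerebellum of 16 mice was sequenced, giving 46 libraries from separate animals per genotype and tissue. The deposited values are raw counts of reads per gene, which the authors made, per the submitters' processing notes, with STAR 2.4.2a, HTSeq 0.4.1, SAMtools 1.2, Picard 1.134 and FastQC 0.11.3 on GRCm38 (mm10). Annotation release, strand setting and order of steps are not given in the sources used here. Per the labels' protocols, organs were frozen in TRIzol, total RNA was purified with a DNase step, and libraries came from the Nextera XT kit, which does not mark strand. The table had 53471 rows, 6 of them repeats with identical counts, and 0 columns without a sample.

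Counts were tested with edgeR 4.0.16 in R 4.3.3 (quasi-likelihood, TMM, filterByExpr by genotype at count 10, total 15), adjusted by Benjamini-Hochberg over all genes of a tissue and called at an adjusted p under 0.05. This test was also run on simulated data. CPM are on library totals, per kilobase on the exon union of GENCODE M21, which held 99.6% of identifiers. The genotype effect in kidney and liver was compared by interaction. Labels tie the organs to the animal: deviations of the same animal correlated from -0.017 to 0.246 over 11 animals, 9 of them over 0.1, so the fit with an animal block stands beside the main one. Alternatives included DESeq2 1.42.0, limma 3.58.1 (voom), other scalings and filters, Xist as a covariate and leaving out each kidney.

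The 34 genes, the gene lists, the tests and the left-out libraries were chosen with earlier results of these data known. All 34 are named, and of the other lists the genes called, up to 4 per list in order of adjusted p. Within identifier ratios and the library labelled liver of animal 2 were added after the data were seen. BC017158, Nrxn2, Prepl, Sacm1l, Ak4, Rsad2 and the genes called only without animal 3 are named outside that rule. Of the lists, 2 genes are not reported here and were left out of their counts and sums.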

Additional observations from a re-analysis of the deposited data

Results flagged for a closer look

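Among the 34 genes in 2 kidney groups, 6 of 68 sets of values had 1 kidney set apart from the rest of its group by a wide gap, where chance gives about 1 in 20. Of the 6, 4 came from animal 3, the shallowest p150-negative kidney. In it, Kap stood at 15470 CPM (3649 to 4818 in the others of its group), Slc5a8 at 501.5 CPM (148 to 210.6), Slc34a3 at 144.9 CPM (25.84 to 29.44) and Slc9a3 at 118.9 CPM (58.3 to 74.6). The remaining 2 came from p150-positive animal 13, with Slc4a4 at 893.2 CPM (281.8 to 517.3) and Slc7a13 at 69.87 CPM (116.9 to 143.2).

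The genotype effect differed between kidney and liver for Miox (-2.682 on the log2 scale, kidney minus liver), Slc22a30 (2.994) and Aqp1 (1.163).

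The library labelled liver of animal 2, which entered no comparison, held the 34 genes at a summed 11790 CPM, against 353.8 to 782.5 CPM in the other livers.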

How the results depend on the processing

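Genes called in kidney numbered 83 in the reported fit, 211 without animal 3, 347 by DESeq2, 141 with no filter, 32 with the identifier part as a term and 1 over all 15 labelled kidneys. Over the fits that each left out 1 kidney they ranged from 34 to 211. Of the 34 genes, 5 were called lower in the reported fit, 8 without animal 3, 8 by DESeq2, 3 by limma voom, 1 with the identifier part and 0 over all 15 kidneys. The range over the fits that left out 1 kidney was 1 to 8. RLE scaling, library totals, robust dispersion, a stricter filter and Xist as a covariate each gave 5, and no filter gave 7. No setting called any of the 34 higher, and no called gene changed sign. The genes with a different effect in kidney and liver numbered 3, also 3 with the animal as a replicate block in the paired fit, and 1 over all labelled libraries. Animal 3, with 0.27 M counts, limits genes under 11.1 CPM and also some well above. Slc6a20b had no read in it, against a p150-negative median of 103 CPM. The p-values of the reported kidney fit measure the spread among 12 animals whose sex the labels do not give. Those of liver and cerebellum rest on 14 and 15 libraries, and those of the comparison of organs on the kidney and liver libraries together.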

Other observations

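The library labelled liver of animal 2, a p150-negative animal, held the kidney genes Umod, Aqp2, Slc12a1, Slc12a3 and Cdh16 at 6501 CPM and adrenal cortex genes at 2602 CPM. Of the 34 proximal tubule genes, 30 stood above every other liver in it, and the share of all genes that did so was not counted. In the same library 18 of the 34 (52.9%) stood below every p150-positive kidney, where 15.6% of all genes tested in kidney did. Slc5a2 was at 200.8 CPM, Slc16a14 at 18.23 CPM, Slc22a2 at 32.45 CPM, Slc22a12 at 5.899 CPM and Slc22a7 at 0 CPM. Of the 5 genes that fell in kidney, 4 were below every p150-positive kidney there, and so were genes not called in kidney. Among the latter were Slc13a1 (201.9 CPM, kidney log2 fold change 0.45), Slc6a18 (363.9 CPM), Slc5a1 (70.52 CPM) and Kap (3200 CPM). The part of the adrenal RNA in these low values was not tested. The markers of this library go against its label, and it was used in no test.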
